A study of Mus musculus with 12 samples.

Results

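The enzymes of amino acid breakdown, the urea cycle and gluconeogenesis were followed in whole liver of mice aged 2 weeks, on 12 Affymetrix arrays with 3 for each of 4 genotypes. The set of 34 genes was listed by function, with earlier results of these data known, so shares over all genes are given as a description. A gene was taken where a transcript cluster (the array's unit for a gene) was annotated to it alone, by the cluster of highest mean over the 12 arrays. This gave 30 genes of the 19938 with such a cluster. All 30 lay above the 40th percentile of every array, so that all were tested, among 13977 genes in all. Ass1, Gls2, Sds and Ahcy had no cluster of their own in the annotation used and were not analysed here.

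The groups were floxed Stat3 (Stat3Fl/Fl), Stat3Δhc, floxed Stat3 with an Mdr2 knockout (Stat3Fl/FlMdr2-/-) and Stat3Δhc Mdr2-/-. Abcb4 encodes Mdr2, which moves phospholipid into bile, and mice that lack it develop a disease of the bile ducts like sclerosing cholangitis. The Stat3 protein is activated by cytokine receptors and switches on genes in the nucleus. The labels used here name neither the recombinase behind Stat3Δhc nor its promoter, and do not say whether each array is a separate animal, so p-values measure the spread between these arrays. In bulk tissue, fewer cells of a type and less RNA per cell cannot be told apart.

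Hepatocytes take up amino acids from portal blood, pass their nitrogen through glutamate and aspartate into the urea cycle, and feed their carbon into glucose. Many of these enzymes are low before birth and are induced after it, when feeding changes and the liver begins to supply glucose. Along the lobule, urea synthesis and gluconeogenesis are strongest near the portal vein, while glutamine synthesis is restricted to the hepatocytes around the central vein.

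The targeted genes followed the sample titles, with log2 signals of Stat3 between 7.69 and 8.12 in the 6 Stat3Δhc arrays and between 9.19 and 9.54 in the 6 floxed arrays. Abcb4 lay between 8.87 and 9.36 in the 6 Mdr2-/- arrays and between 9.9991 and 10.28 in the others. The mean of 9 hepatocyte markers lay between 13.14 and 13.36 on all 12 arrays. The arrays were not alike in other tissues and in sex. The mean of 14 skeletal muscle markers was 8.54 to 9.31 without the Mdr2 knockout and 5.46 to 5.86 with it, and all 14 fell with Mdr2 loss in either Stat3 genotype. The mean of 11 exocrine pancreas markers ranged from 5.92 to 10.25 without the knockout and from 5.60 to 5.98 with it. Among markers of other cells, the mean ranged from 4.86 to 5.35 for 5 kidney genes, from 6.38 to 6.87 for 6 bile duct genes, from 8.56 to 9.31 for 7 macrophage genes and from 5.61 to 6.38 for 6 erythroid genes. Xist was high and the Y-linked genes low in the 3 Stat3Fl/FlMdr2-/- arrays and in array A of Stat3Δhc Mdr2-/- liver, and the other 8 arrays had the opposite pattern. The part of these tissue and sex signals in the results was not tested, except where a value is given.

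The enzymes varied most within floxed liver. The SD over 3 arrays was largest there for 18 of the 30 genes, with a median of 0.20 against 0.08 in Stat3Δhc liver, 0.13 in Stat3Fl/FlMdr2-/- liver and 0.18 in Stat3Δhc Mdr2-/- liver. Array A was the highest of the floxed arrays for 27 of the 30 genes, and array B the lowest for 21. These counts were not made over all genes tested, so they do not show a trait particular to the enzymes. The mean of the 30 genes was 11.28, 10.70 and 10.86 in floxed arrays A, B and C, and 11.54, 11.54 and 11.51 in the Stat3Δhc arrays. It was 10.85, 10.83 and 10.69 in the Stat3Fl/FlMdr2-/- arrays and 11.22, 11.35 and 11.07 in the Stat3Δhc Mdr2-/- arrays. Both Stat3Δhc groups therefore lay above the Stat3Fl/FlMdr2-/- arrays, while floxed array A lay within the range of the Stat3Δhc Mdr2-/- arrays. Exocrine pancreas markers averaged 5.92 in floxed array A, 9.35 in B and 7.71 in C. Macrophage markers averaged 8.75, 9.22 and 9.31 in the same arrays and 8.63 to 8.86 in the Stat3Δhc arrays. In Stat3Δhc liver the exocrine pancreas markers averaged 6.09, 8.32 and 10.25 in arrays A, B and C. The mean of the 30 enzymes lay between 11.51 and 11.54 across these arrays, and the part of either marker list was not tested.

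**Figure D1:**
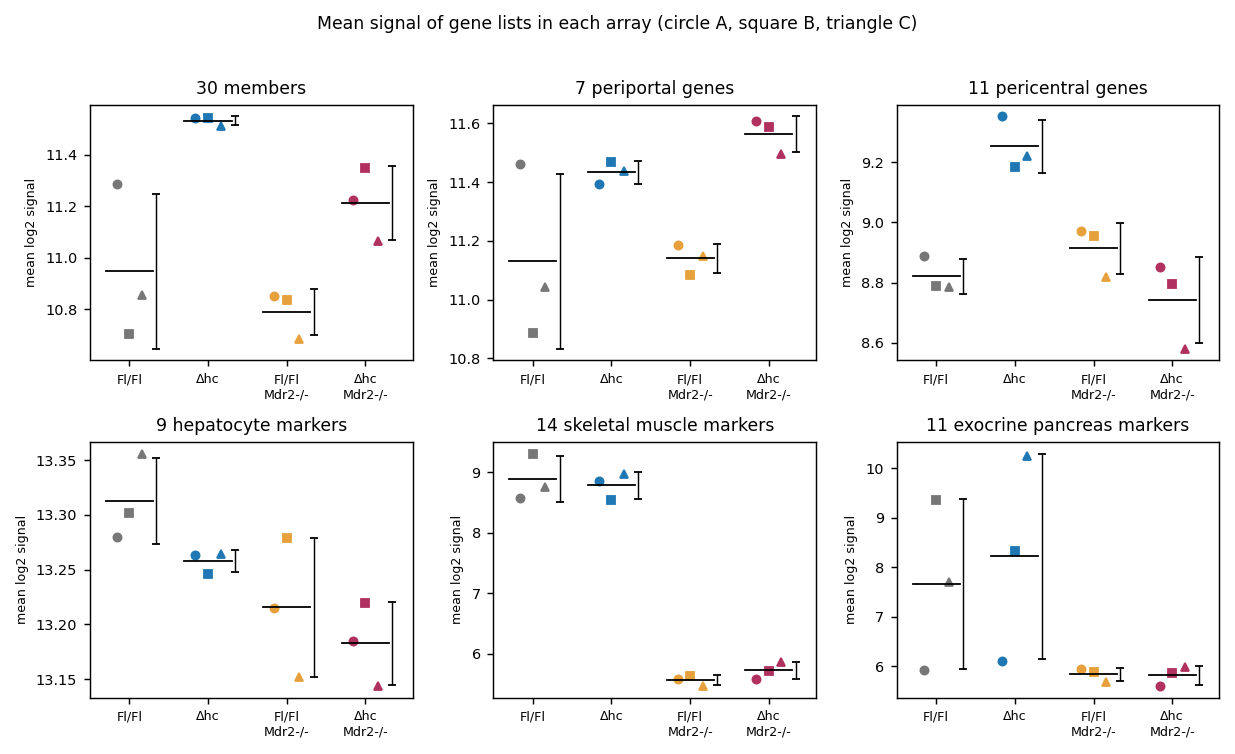
Mean log2 signal of the 30 enzymes and of 5 marker lists in each array, by genotype (points are arrays A, B and C, the line is the mean and the bar the SD of 3 arrays). The enzymes lie at 11.51 to 11.54 in the 3 Stat3Δhc arrays and at 10.70 to 11.28 in the floxed arrays, and skeletal muscle markers are lower in all 6 Mdr2-/- arrays.

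Stat3 deletion without the Mdr2 knockout shows what these enzymes did in mice that lack the cholestatic background. Of the 30 enzymes, 12 rose and 0 fell (adjusted p under 0.05, limma with Benjamini-Hochberg adjustment over all genes tested), where 2.58 percent of all genes tested were called, 1.51 percent higher and 1.07 percent lower. The median log2 change was 0.44, against -0.0059 over all genes tested, and 28 of 30 changes were above 0. The groups did not overlap for 24 enzymes, 22 of them higher, where 25.1 percent of all genes tested were without overlap. Without floxed array A 19 enzymes rose, with 753 of all genes called, and without floxed array B or C, or Stat3Δhc array A, B or C, the counts were 1, 2, 3, 2 and 2, with 76, 69, 103, 131 and 140 of all genes called. All 7 macrophage markers had changes below 0 in this comparison (median -0.29), and 0 passed. Of the 7, 4 had an unadjusted p under 0.05, as did 2286 of the 13977 genes tested. The part of the macrophage markers was not tested.

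Among the urea cycle genes, Arg1, Asl and Cps1 rose. Arginase, which releases urea, had Arg1 signals of 11.94, 11.14 and 11.31 in floxed arrays A, B and C and 12.39, 12.44 and 12.29 in the Stat3Δhc arrays. It rose 1.87-fold (log2 change 0.91, SE 0.18, adjusted p = 0.0215), and floxed array A was the nearest to the deleted arrays. Argininosuccinate lyase, Asl, was 11.24, 10.43 and 10.69 in floxed and 11.54, 11.65 and 11.45 in Stat3Δhc liver, a rise of 0.76 (SE 0.17, adjusted p = 0.0393). Cps1, the carbamoyl phosphate synthetase that commits ammonia to the cycle, was 13.21, 12.72 and 12.90 against 13.38, 13.39 and 13.36 (0.44, SE 0.11, adjusted p = 0.0495), a call that was lost in 13 of 19 other settings (adjusted p 0.00118 to 0.22). Nags, which makes the activator of Cps1, and the ornithine transcarbamylase gene Otc had changes of 0.39 (adjusted p = 0.0619) and 0.26 (adjusted p = 0.283). Oat, ornithine aminotransferase of the pericentral cells, rose 2.28-fold (1.19, SE 0.20, adjusted p = 0.00899), from 10.04, 9.58 and 9.89 to 11.27, 10.92 and 10.88. Its call held in all other settings except without floxed array B (adjusted p = 0.0566). The glutamine synthetase gene Glul had a change of 0.12 (adjusted p = 0.67).

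The largest change was that of Gpt, the alanine aminotransferase that links alanine to pyruvate. Its signal was 10.39, 8.13 and 8.13 in floxed arrays A, B and C and 11.01, 11.03 and 11.06 in the Stat3Δhc arrays. The deleted arrays lay close together and above all floxed arrays, of which A stood far above B and C. Gpt rose 4.45-fold (2.15, SE 0.45, adjusted p = 0.0257), and without floxed array A the log2 change was 2.91. Prodh, the proline oxidase, had the same arrangement, with 9.26, 7.09 and 7.31 in floxed and 9.69, 9.94 and 9.80 in Stat3Δhc liver. It rose 3.80-fold (1.93, SE 0.40, adjusted p = 0.0253), or by 2.61 without floxed array A. Aldh4a1, the next enzyme of proline breakdown, had a change of 0.26 (adjusted p = 0.226). Got1 and Agxt, the aspartate and alanine-glyoxylate aminotransferases, had changes of 0.70 (adjusted p = 0.065) and 0.34 (adjusted p = 0.214).

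A window upstream of the Prodh start is shown because it was the only match among the enzymes searched to the palindromic STAT motif TTCNNNGAA. The motif was searched on both strands of the 250 bases before each RefSeq start (build GRCm38.p6), for the 24 enzymes matched by symbol, in 26 windows. It was present in 1 of these windows, 3.85 percent, and in 7.02 percent of 32851 windows of the same length. The cyclic AMP response motif TGACGTCA (1.55 percent of all windows) and the C/EBP type palindrome TTGCGCAA (0.164 percent) matched 0 of the 26. Cps1, Asl, Arg1, Gpt, Mat1a and Cth had no window by symbol and were not searched. A match is a description of the letters only, and the other windows say nothing of factors that bind elsewhere. The window lies at chr16:18089191-18089440 on the minus strand, in lower case from 5′ to 3′, and the capitals mark the match, which begins 57 bases before the start.
Prodh: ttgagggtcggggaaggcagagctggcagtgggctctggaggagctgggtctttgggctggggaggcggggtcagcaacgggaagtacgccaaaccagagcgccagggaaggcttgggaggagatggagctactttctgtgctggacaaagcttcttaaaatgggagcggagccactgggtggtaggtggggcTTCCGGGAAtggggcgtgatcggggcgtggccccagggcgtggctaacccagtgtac

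Of the enzymes of glycine, histidine, tyrosine and methionine, 6 rose with Stat3 deletion alone. Gldc, the glycine decarboxylase, was 10.25, 9.92 and 10.23 in floxed and 10.76, 10.85 and 10.91 in Stat3Δhc liver. It rose 1.64-fold (0.71, SE 0.11, adjusted p = 0.00594), and this call held in all 19 other settings (adjusted p 0.000212 to 0.035). Hal, which opens histidine breakdown, was 10.95, 10.04 and 10.26 against 11.21, 11.49 and 11.33 and rose 1.90-fold (0.92, SE 0.18, adjusted p = 0.0172). Uroc1, the next enzyme of that path, rose by 0.44 (SE 0.10, adjusted p = 0.0416) from 10.63, 10.36 and 10.30 to 10.83, 10.85 and 10.93. Hpd, a dioxygenase of tyrosine breakdown, rose by 0.49 (SE 0.10, adjusted p = 0.0228), from 12.39, 12.03 and 12.21 to 12.72, 12.71 and 12.68. The other tyrosine enzymes did not pass, with changes of 0.86 for the aminotransferase Tat (adjusted p = 0.0806), 0.36 for Hgd and 0.15 for Fah. Gnmt, the glycine methyltransferase that uses up excess methyl groups, rose 2.42-fold (1.28, SE 0.28, adjusted p = 0.0309). It was 11.85, 10.46 and 10.75 in floxed and 12.27, 12.43 and 12.19 in Stat3Δhc liver. Cbs, which draws homocysteine into cysteine synthesis, rose by 0.44 (SE 0.11, adjusted p = 0.0477), from 10.93, 10.53 and 10.70 to 11.11, 11.21 and 11.15. The call of Cbs was lost in 13 of 19 other settings (adjusted p up to 0.219), that of Uroc1 in 11 (up to 0.214), that of Asl in 9, that of Hal in 4, and those of Arg1, Gpt, Hpd, Gnmt and Prodh in 5 each. Mat1a, Bhmt and Cth, the other methionine enzymes measured, had changes of 0.35, 0.35 and 0.50 (adjusted p = 0.0648, 0.0593 and 0.371).

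Of the 4 gluconeogenesis enzymes 0 passed. Pck1, the cytosolic phosphoenolpyruvate carboxykinase, had a change of 0.10, the glucose 6-phosphatase gene G6pc 0.70 with an SE of 0.29, the fructose bisphosphatase gene Fbp1 -0.28 and the pyruvate carboxylase gene Pcx -0.15 (adjusted p = 0.81, 0.237, 0.135 and 0.458). The Fbp1 signals were 12.68, 12.56 and 12.61 in floxed and 12.42, 12.25 and 12.33 in Stat3Δhc liver, so that the groups did not overlap although the test was not passed. Upp2, which splits uridine, had a change of 0.80 (adjusted p = 0.217).

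**Figure D2:**
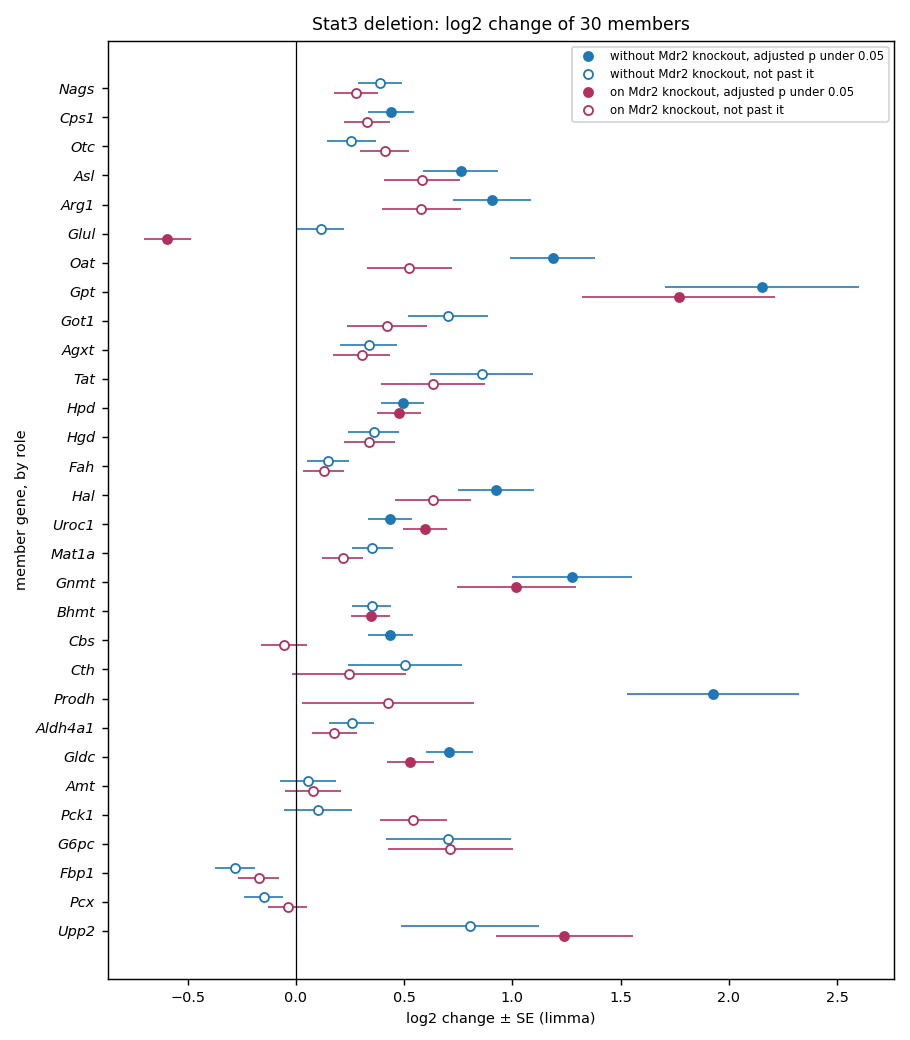
Log2 change with Stat3 deletion for each of the 30 enzymes without (blue) and on (red) the Mdr2 knockout, with the limma standard error, and filled points for adjusted p under 0.05. Without the knockout 28 of 30 points lie above 0, on the knockout 26, and Glul is the only filled point below 0.

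On the Mdr2 knockout, the comparison addresses the mice that develop cholestatic injury. Here 7 of the 30 enzymes rose and 1 fell, where 5.77 percent of all genes tested were called, 1.87 percent higher and 3.9 percent lower. The median change was 0.42 against -0.03 over all genes tested, with 26 of 30 above 0. Groups without overlap were found for 19 enzymes, 18 of them higher (28.6 percent of all genes tested). With a covariate for the Xist and Y-linked pattern, 0 of the 30 and 37 of all genes were called, and that fit rests on array A of Stat3Δhc Mdr2-/- liver, the single deleted array with the pattern of its floxed controls. Without that array 7 enzymes were called, 6 higher, among 1474 of all genes. This leaves deleted arrays of the Y-linked pattern only against floxed arrays of the Xist pattern only. Sex and Stat3 deletion cannot be told apart in that setting. Without Stat3Δhc Mdr2-/- array B 2 enzymes were called, among 351 of all genes. The count was 5, 3 and 2 without Stat3Fl/FlMdr2-/- array A, B and C, with 553, 300 and 403 of all genes called. It was 4 and 5 without Stat3Δhc array A and B (526 and 692 of all genes), and 13 without floxed array A (837 of all genes). In the same comparison 2 of 7 macrophage markers fell, whose part was not tested, and 0 of 9 hepatocyte markers changed.

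Glul, which makes glutamine around the central vein, was the enzyme that fell. Its signals were 11.91, 11.997 and 11.78 in Stat3Fl/FlMdr2-/- arrays A, B and C and 11.48, 11.35 and 11.08 in Stat3Δhc Mdr2-/- liver, a 1.51-fold fall (log2 change -0.59, SE 0.11, adjusted p = 0.00947). The other Glul cluster had a change of -0.49. All 3 deleted arrays lay below the floxed ones, and the call held in the other settings except with the Xist and Y-linked covariate (-0.42, adjusted p = 0.305).

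Uroc1 rose 1.51-fold (0.60, SE 0.10, adjusted p = 0.00652), from 9.95, 9.99 and 9.97 to 10.68, 10.63 and 10.40, and its call was lost with that covariate alone (0.71, adjusted p = 0.0744). Hpd rose by 0.48 (SE 0.10, adjusted p = 0.0181), from 12.01, 12.01 and 11.85 to 12.48, 12.51 and 12.31. Gldc rose by 0.53 (SE 0.11, adjusted p = 0.0175), from 10.09, 9.93 and 9.83 to 10.60, 10.50 and 10.34. In these enzymes array C was the lowest deleted array and still lay above the floxed arrays. Gpt rose 3.41-fold (1.77, SE 0.45, adjusted p = 0.0385), from 8.42, 8.12 and 7.95 to 9.53, 10.11 and 10.17. Here the floxed arrays were close to each other, unlike those without the knockout.

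Upp2, the uridine phosphorylase, rose 2.36-fold (1.24, SE 0.32, adjusted p = 0.0401), from 9.55, 9.45 and 8.63 to 10.10, 11.06 and 10.19, with array B the highest by far. Without that array the change was 0.94 (adjusted p = 0.119). In methyl metabolism, Gnmt rose 2.03-fold (1.02, SE 0.28, adjusted p = 0.0489), from 10.85, 11.02 and 10.41 to 11.70, 12.01 and 11.62. Bhmt, which remethylates homocysteine with betaine, rose 1.27-fold (0.35, SE 0.09, adjusted p = 0.0436), from 12.98, 13.08 and 12.86 to 13.27, 13.41 and 13.28. Each of these last calls was lost in 13 of 19 other settings (adjusted p up to 0.466 and 0.477), those of Upp2 and Gpt in 8, that of Gldc in 4 and that of Hpd in 3. Of the Bhmt clusters, that of lowest signal had a change of 0.14.

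The urea cycle genes Cps1, Otc, Asl and Arg1 had changes of 0.33, 0.41, 0.58 and 0.58 and did not pass (adjusted p = 0.0777, 0.0525, 0.0658 and 0.0722). For Pck1 and G6pc the changes were 0.54 (adjusted p = 0.0581) and 0.71 (adjusted p = 0.135). Prodh, which had risen without the knockout, had a change of 0.43 (SE 0.40, adjusted p = 0.486), with 8.41, 8.60 and 8.44 in floxed and 9.12, 8.74 and 8.86 in deleted liver. Of the calls in each Stat3 comparison, Gldc, Gnmt, Gpt, Hpd and Uroc1 were common to both, 41.7 percent of the 12 and 62.5 percent of the 8. The genotype means of these comparisons share no arrays, but both tests use the same estimate of each gene's spread, from all 12 arrays. The overlap of calls over all genes tested is not given here.

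**Figure D3:**
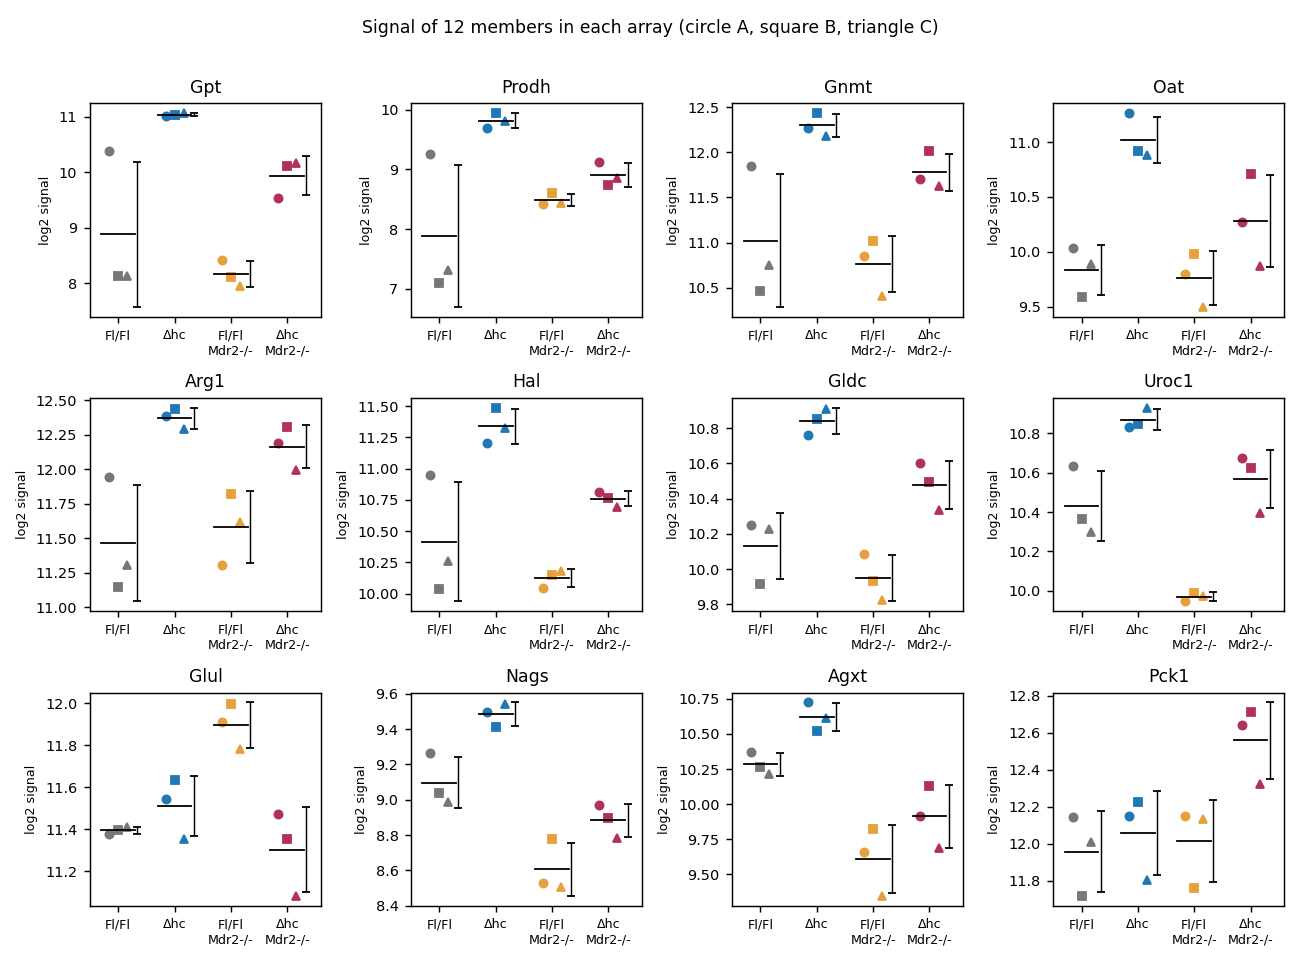
Log2 signal of 12 of the enzymes in each array by genotype, with the mean as a line and the SD of 3 arrays as a bar. In Gpt and Prodh, floxed array A (10.39 and 9.26) stands apart from arrays B and C, while the 3 Stat3Δhc arrays lie together above all of them.

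The test of the difference between the Stat3 effects compares them between the Mdr2 genotypes. All arrays without the knockout had the Y-linked pattern. On the knockout all floxed arrays had the Xist pattern, but only array A of the deleted arrays did. Sex was therefore uneven between the Stat3 genotypes on the knockout only. This test does not separate that unevenness from a difference of the Stat3 effects. By limma 0 of the 30 enzymes passed, where 0.0715 percent of all genes tested did (0.0572 percent lower). An unadjusted p under 0.05 was found for 4 of the 30, and for 2360 of the 13977 genes tested. The enzymes do not stand out by this count. The 4 were Glul (difference -0.71, SE 0.15, adjusted p = 0.114), Cbs (-0.49, SE 0.15, adjusted p = 0.224), Prodh (-1.50, SE 0.56, adjusted p = 0.247) and Oat (-0.66, SE 0.28, adjusted p = 0.27). Each of these had the lower Stat3 effect on the knockout. Prodh passed without floxed array A, and Glul with array weights. For Hpd, Bhmt and Gpt the differences were -0.02 (SE 0.14), -0.0050 (SE 0.13) and -0.38 (SE 0.63), which for Gpt leaves a wide interval.

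Mdr2 loss in floxed liver shows the enzymes where Stat3 was not deleted. Of the 30, 5 fell and 1 rose, where 12.8 percent of all genes tested were called, 5.65 percent lower and 7.12 percent higher. The median change was -0.18 against -0.0042 over all genes tested, and without floxed array A it was 0.0073. Groups without overlap were found for 10 enzymes, or 33.3 percent, the same share as over all genes tested. The Xist and Y-linked pattern differed between these groups in every array, so that sex and Mdr2 loss cannot be told apart within this comparison. This comparison and that of Stat3 deletion without the knockout share the floxed arrays.

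Nags fell 1.41-fold (-0.49, SE 0.10, adjusted p = 0.00704), from 9.26, 9.04 and 8.99 in floxed to 8.53, 8.78 and 8.51 in Stat3Fl/FlMdr2-/- liver. Agxt, which detoxifies glyoxylate, fell 1.60-fold (-0.68, SE 0.13, adjusted p = 0.00509), from 10.37, 10.26 and 10.21 to 9.66, 9.82 and 9.34. Uroc1 fell by 0.46 (SE 0.10, adjusted p = 0.00971), and its 3 knockout arrays at 9.95 to 9.99 lay below floxed arrays at 10.30 to 10.63. The proline enzyme Aldh4a1 fell by 0.45 (SE 0.10, adjusted p = 0.0126), from 10.95, 10.83 and 10.72 to 10.49, 10.39 and 10.26. Amt, the aminomethyltransferase that works with Gldc in glycine cleavage, fell by 0.51 (SE 0.13, adjusted p = 0.022), from 9.96, 10.07 and 10.08 to 9.61, 9.70 and 9.28. Without Stat3Fl/FlMdr2-/- array C the Aldh4a1 and Amt calls were lost (adjusted p = 0.0591 and 0.0962), as was that of Aldh4a1 without floxed array A (0.0516) and that of Amt without floxed array B (0.0721) or C (0.0752).

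Glul went the other way and rose 1.42-fold (0.50, SE 0.11, adjusted p = 0.00915), from 11.38, 11.40 and 11.41 to the 11.78 to 11.997 of Stat3Fl/FlMdr2-/- liver. The same knockout arrays are the controls of its fall with Stat3 deletion. The call of the Glul rise was lost in 1 of 19 other settings, with the Xist and Y-linked covariate, where the change was 0.24. Skeletal muscle markers fell in this comparison, and their part was not tested. Gpt, Prodh and Tat had changes of -0.72, 0.59 and 0.40, none past the test (adjusted p = 0.346, 0.382 and 0.322), with floxed arrays B and C on one side of the knockout values of Prodh and array A on the other.

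With Mdr2 loss in Stat3Δhc liver, 9 of the 30 enzymes fell and 1 rose, where 17.4 percent of all genes tested were called, 10.5 percent lower and 6.9 percent higher. The median change was -0.29 against -0.02 over all genes tested, and 25 of 30 changes were below 0. Groups without overlap were found for 20 enzymes, 18 of them lower (37.2 percent of all genes tested). Without array A of Stat3Δhc Mdr2-/- liver, which leaves arrays of the Y-linked pattern only, 8 were called lower, with 2606 of all genes called. Without Stat3Δhc array A or C or Stat3Δhc Mdr2-/- array C the counts were 4, 5 and 5, with 1403, 1153 and 1538 of all genes called. Of 9 hepatocyte markers 1 fell, as did 2 of 11 exocrine pancreas markers and all 3 tested erythroid markers, and their part was not tested.

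Of the 9, Nags, Agxt, Aldh4a1 and Amt had also fallen in floxed liver, which makes 40 percent of the 10 calls here and 66.7 percent of the 6 there. Nags fell 1.52-fold (-0.60, SE 0.10, adjusted p = 0.00193), from 9.5, 9.41 and 9.54 to 8.97, 8.90 and 8.78. Agxt fell 1.64-fold (-0.71, SE 0.13, adjusted p = 0.00335), from 10.73, 10.52 and 10.62 to 9.92, 10.13 and 9.69. Aldh4a1 fell by 0.54 (SE 0.10, adjusted p = 0.00435), from 11.22, 10.99 and 11.06 to 10.46, 10.73 and 10.48. Amt fell by 0.48 (SE 0.13, adjusted p = 0.0237), from 10.08, 9.98 and 10.23 to 9.47, 9.87 and 9.49. The Amt call was lost in 5 of 19 other settings, 4 of which leave out an array (Stat3Δhc A or C, Stat3Δhc Mdr2-/- A or C, adjusted p up to 0.102). With array weights the Amt call held, at a change of -0.30. The calls of Nags, Agxt, Aldh4a1 and Cbs held in all 19 other settings.

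Cbs, Oat, Hal and Gldc also fell here, after rising with Stat3 deletion alone, and these comparisons share the Stat3Δhc arrays. Cbs fell by 0.49 (SE 0.11, adjusted p = 0.00771), to 10.66, 10.77 and 10.58, which is within the range of floxed liver (10.53 to 10.93). Oat fell 1.67-fold (-0.74, SE 0.20, adjusted p = 0.0229), to 10.27, 10.71 and 9.87. Hal fell 1.5-fold (-0.58, SE 0.18, adjusted p = 0.0391), to 10.82, 10.77 and 10.70, and Gldc fell by 0.36 (SE 0.11, adjusted p = 0.0391), to 10.60, 10.50 and 10.34. Got1, the cytosolic aspartate aminotransferase, fell 1.64-fold (-0.71, SE 0.19, adjusted p = 0.0212), from 11.87, 11.89 and 11.78 to 11.33, 11.36 and 10.72. The Oat and Got1 calls were lost without Stat3Δhc array A (adjusted p = 0.0925 and 0.062) or Stat3Δhc Mdr2-/- array C (0.0895 and 0.0767), that of Got1 also without Stat3Δhc array C (0.0541), and those of Hal and Gldc in 10 and 8 of 19 other settings. Pck1 was the enzyme that rose, 1.41-fold (0.50, SE 0.16, adjusted p = 0.0435), from 12.15, 12.23 and 11.80 to 12.64, 12.71 and 12.32, a call lost in 9 of 19 other settings. The 3 doubly mutant arrays were above the 9 others.

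**Figure D4:**
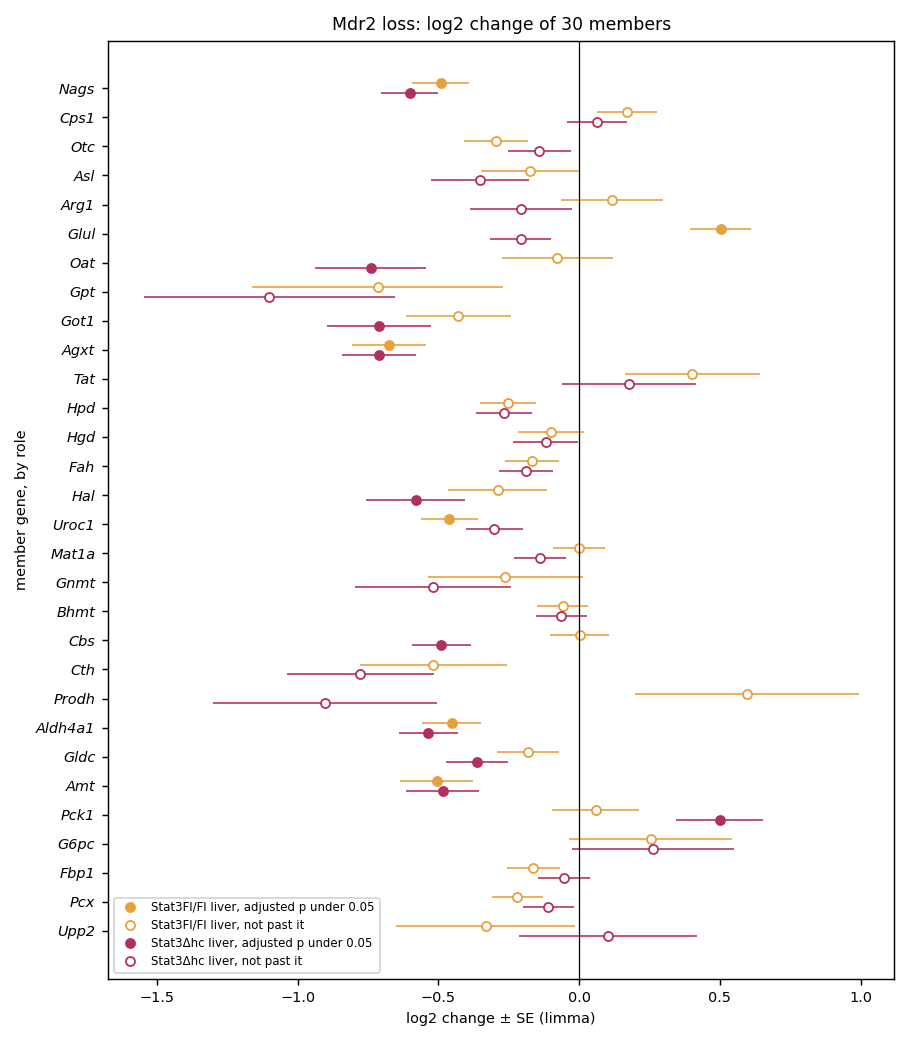
Log2 change with Mdr2 loss for each of the 30 enzymes in floxed (orange) and Stat3Δhc (red) liver, with the limma standard error, and filled points for adjusted p under 0.05. In Stat3Δhc liver 25 of 30 points lie below 0, and Nags, Agxt, Aldh4a1 and Amt are filled in both genotypes.

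Over the 5 comparisons 21 of the 30 enzymes passed at least once. Otc, Tat, Hgd, Fah, Mat1a, Cth, G6pc, Fbp1 and Pcx passed in none. The G6pc signal was uneven within groups, with 11.24, 10.35 and 11.24 in floxed and 11.51, 10.44 and 11.65 in Stat3Fl/FlMdr2-/- liver against 11.59 to 12.05 in the 6 Stat3Δhc arrays. Tat was likewise lowest in floxed array B, at 10.78 against 11.56 to 12.08 in arrays A and C. Cth, which makes cysteine, ranged from 10.49 to 11.60 within Stat3Δhc Mdr2-/- liver.

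Other genes of these pathways were counted from separate lists. Of all genes tested, 2.58 percent were called with Stat3 deletion alone and 5.77 percent on the knockout. With Mdr2 loss 12.8 percent were called in floxed and 17.4 percent in Stat3Δhc liver, and some list counts lie near these shares. Among 31 tested enzymes of amino acid breakdown outside the set, 9 rose and 1 fell with Stat3 deletion alone (median 0.29). Gpt2, the mitochondrial alanine aminotransferase, rose by 1.21 (adjusted p = 0.0477), Aass of lysine breakdown by 0.71 (0.0444) and Cdo1, which oxidises cysteine, by 0.58 (0.00485), while Csad of taurine synthesis fell by 1.13 (0.0188). On the knockout 9 rose and 0 fell (median 0.27), among them Dbt and Ivd of branched-chain amino acid breakdown, by 0.73 (0.0209) and 0.65 (0.00379). With Mdr2 loss 10 fell and 0 rose in floxed liver (median -0.22), and 12 fell and 1 rose in Stat3Δhc liver (median -0.25). Dbt and the proline-related oxidase Prodh2 fell by 0.78 (0.00653) and 0.65 (0.000668) in floxed liver. In Stat3Δhc liver Mccc1 of leucine breakdown and the glyoxylate reductase gene Grhpr fell by 0.59 (0.00404) and 0.57 (0.00221), and Csad rose by 0.76 (0.0326).

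Of 12 methionine and folate genes, 1 rose with Stat3 deletion alone, Aldh1l1 by 0.59 (adjusted p = 0.0305), and 4 rose and 1 fell on the knockout. Sardh, which breaks down sarcosine, the product of Gnmt, rose there by 0.63 (0.0122), and fell by 0.57 (0.00797) and 0.41 (0.0355) with Mdr2 loss in floxed and Stat3Δhc liver. Of 5 tested genes of amino acid synthesis, 1 fell with Stat3 deletion alone and 2 on the knockout, and 0 rose. Psat1 of serine synthesis fell in both, by 0.59 (0.0172) and 0.55 (0.0164). Of 9 other urea cycle and ammonia genes, the cationic amino acid transporter gene Slc7a2 was the only call with Stat3 deletion, a rise of 0.89 (0.00213) without and 0.57 (0.0174) on the knockout.

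Of 11 other gluconeogenesis and glycogen genes, 2 rose with Stat3 deletion alone, Slc37a4, which carries glucose 6-phosphate to G6pc, by 0.87 (adjusted p = 0.00917) and Ugp2 by 0.56 (0.0143), and 2 rose on the knockout, Ugp2 by 0.47 (0.0196) and Mdh1 by 0.47 (0.0115). The glucose transporter gene Slc2a2 rose with Mdr2 loss, by 0.74 (0.00032) in floxed and 0.62 (0.000948) in Stat3Δhc liver. Of 6 glycolysis genes tested, 2 fell with Stat3 deletion on the knockout, Pklr by 0.44 (0.0479) and Ldha by 0.36 (0.03). Among 14 genes that control gluconeogenesis and urea synthesis, Klf15, a glucocorticoid-responsive factor that drives amino acid breakdown, rose by 0.70 (0.0349) with Stat3 deletion alone and was the only call in either Stat3 comparison. Ppargc1a, a coactivator of gluconeogenic genes, and Irs2 rose by 0.76 (0.0146) and 0.50 (0.0065) with Mdr2 loss in Stat3Δhc liver, and Foxo1 by 0.83 (0.0122) in floxed liver.

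Position along the lobule was read from lists of zone markers that include several of the enzymes. Of 11 pericentral genes, 3 rose and 0 fell with Stat3 deletion alone (median 0.39), namely Oat, Lgr5 by 0.70 (adjusted p = 0.0124) and Cyp1a2 by 0.56 (0.0421). On the knockout 0 rose and Glul alone fell (median -0.22). The difference of these effects was below 0 for all 11, with a median of -0.43 against -0.04 over all genes tested, and 0 passed. The uneven sex pattern between the Stat3 genotypes on the knockout is not separated from that difference either. With Mdr2 loss in Stat3Δhc liver 8 of the 11 fell (72.7 percent against 17.4 percent of all genes tested), among them Cyp1a2 by 0.98 (0.000432), the Wnt targets Lgr5 by 0.93 (0.000416) and Axin2 by 0.57 (0.00123), and Rnf43 by 0.66 (0.00122). In floxed liver 3 rose and 1 fell, with rises of Glul and of the glutamate transporter gene Slc1a2, by 1.56 (0.00352). Of 7 periportal genes, 3 rose and 1 fell with Stat3 deletion alone, and 1 rose on the knockout, Cyp2f2 by 1.03 (0.0317). The 3 that rose were the enzymes Cps1, Asl and Hal, so that this count repeats calls already given. With Mdr2 loss 2 rose and 1 fell in floxed liver, where Cyp2f2 fell by 0.89 (0.0327), and 3 rose and 1 fell, Hal, in Stat3Δhc liver. Cdh1, the periportal cadherin, fell by 0.67 (0.00573) with Stat3 deletion alone and rose with Mdr2 loss, by 0.84 (0.000227) in floxed and 1.21 (9.37e-06) in Stat3Δhc liver.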

How the data were processed

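Whole-liver total RNA was hybridised to the arrays. The deposited values are on a log2 scale, and the submitters' processing notes name RMA, without a version. The build and the annotation of the authors' processing are not given in the sources used here. Arrays were grouped by title, with which the genotype and description fields agree on every array. The source name field swaps the Stat3 genotypes of the Mdr2-/- arrays, and grouping by it would turn the sign of that Stat3 comparison. Of 35556 transcript clusters, 21789 name 1 gene in the platform annotation, 1621 several and 12146 none. Genes whose signal passed the 40th percentile of its own array on 3 or more arrays were tested (13977). Comparisons used limma 3.58.1 (R 4.3.3), lmFit and eBayes on all 12 arrays, with 8 residual degrees of freedom, Benjamini-Hochberg adjustment and a threshold of 0.05. The median standard error was 0.11, and the number of arrays limits the precision. The fit was tested on simulated data. The enzymes and lists were chosen with earlier results of these data known. Named were all enzymes, and up to 4 called genes of each other list by size of change. Alternatives were no filter, a filter at the 60th percentile, averaging the clusters of 1 gene, cyclic loess, array weights, a block for the title's letter, the Xist and Y-linked pattern as a covariate, and leaving out each array. Promoter windows are from RefSeq. Figures used matplotlib 3.10.9 in Python 3.11.15.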

Additional observations from a re-analysis of the deposited data

How the results depend on the processing

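No called change of an enzyme turned direction in any of the 19 other settings. With array weights the number of the 30 enzymes called was 23 for Stat3 deletion alone (12 without weights), 20 for Stat3 deletion on the knockout (8), 1 for their difference (0) and 16 for Mdr2 loss in Stat3Δhc liver (10), while 2955, 2298, 567 and 5830 of all genes were called. With the Xist and Y-linked covariate 0 were called for Stat3 deletion on the knockout and 0 for Mdr2 loss in floxed liver (6 without it). Leaving out 1 array gave 1 to 19 calls for Stat3 deletion alone, 2 to 13 on the knockout, 0 to 1 for the difference, 4 to 7 for Mdr2 loss in floxed and 4 to 15 in Stat3Δhc liver, with 69 to 753, 300 to 1474, 0 to 64, 1098 to 2139 and 1153 to 2606 of all genes called. With the replicate block, the title's letter as a fixed term, 5 enzymes were called for Stat3 deletion on the knockout, where Gpt, Gnmt and Bhmt lost their calls (adjusted p = 0.0568, 0.0616 and 0.0822). The labels do not state whether the letters pair the arrays. Deviations of same-lettered arrays from their group means correlated above 0.1 in 4 of 18 pairs. Their r ranged from -0.41 to 0.37, against -0.37 to 0.48 for other pairs, and with 3 arrays a group this cannot decide the question. All other member counts stayed within 1.5 times the values given. Genes of low signal and small changes are limited by 3 arrays a group.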
